A study of Mus musculus with 8 samples.

Results

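The *Hox* genes of the mouse lie in 4 clusters on different chromosomes, and their RNA was followed from normal prostate through prostatic intraepithelial neoplasia (PIN, a lesion of atypical cells inside the glands) to prostate cancer (PCa). Members were taken by name, as genes whose symbol is *Hox*, a cluster letter from a to d and a number, together with *Gm15055*, a non-coding transcript beside the *Hoxa* cluster. The values given are for 40 of the 27036 rows of the gene table, with 10 *Hoxa*, 10 *Hoxb*, 9 *Hoxc* and 9 *Hoxd* symbols, 1 row for *Gm15055*, and a second row for *Hoxa3* that held 0 counts in every library. On the mm9 genome the *Hoxa* cluster spans chr6:52105366-52210874, *Hoxb* chr11:96055630-96229570, *Hoxc* chr15:102751534-102867274 and *Hoxd* chr2:74506367-74603200. *Gm15055* occupies chr6:52052948-52062531, 42835 bases from the *Hoxa* cluster, on the side away from *Hoxa13*.

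PIN and PCa tissues came from mice of the genotype *R26* mTmG/hAR:*Osr1* Cre/+. Cre made under the *Osr1* promoter there switches on a human androgen receptor transgene and a membrane GFP reporter. The WT prostates came from mice that carry the reporter and *Osr1* Cre but no transgene, so the reporter allele and Cre were shared by all groups, on a mixed background of C57BL/6 and 129S1/SvImJ. There were 3 WT, 3 PIN and 2 PCa libraries of total RNA from tissue pieces, each from a different animal. By the study's methods, PIN and PCa pieces were checked under the microscope to consist mostly of atypical or tumor cells, and the WT mice were matched in age. The ages of these animals are not given in the sources used here. For its single-cell RNA work the paper took PCa tissue from older mice than PIN tissue, so age may also differ between PIN and PCa here. Bulk RNA holds all cells of a piece, so fewer cells of a type and less RNA per cell cannot be told apart.

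*Hox* proteins are homeodomain transcription factors that give cells their position along the body axis. Within a cluster the genes are numbered in paralog groups from 1 at the 3′ end, used early and towards the head, to 13 at the 5′ end, used late and towards the tail, and genes of the same number in different clusters are close relatives. The urogenital sinus, from which the prostate grows, uses genes of the 5′ end, among them *Hoxa13*, *Hoxd13* and *Hoxb13*, and *Hoxb13* remains in the adult prostate epithelium, while Trithorax and Polycomb proteins keep *Hox* clusters open or shut.

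The promoters shown are those of the *Hoxa* and *Hoxb* genes with the largest changes in PCa among genes with an entry in the RefSeq promoter table (build GRCm38.p6). Of the 11 members called in PCa against WT, 6 had an entry, and *Gm15055*, *Hoxb3*, *Hoxb5*, *Hoxb6* and *Hoxb7* had none. Each sequence runs from 250 bases before the start of transcription to 50 bases after it, on the strand of the gene, and capitals mark CG dinucleotides, the sites of DNA methylation.
Hoxa5 (chr6:52204538-52204837, minus strand): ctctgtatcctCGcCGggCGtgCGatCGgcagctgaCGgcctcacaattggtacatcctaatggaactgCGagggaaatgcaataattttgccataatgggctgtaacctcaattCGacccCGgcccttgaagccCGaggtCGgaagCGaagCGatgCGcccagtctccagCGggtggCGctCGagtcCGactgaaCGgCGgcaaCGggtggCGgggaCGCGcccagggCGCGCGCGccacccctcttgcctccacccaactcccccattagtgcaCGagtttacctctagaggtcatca
Hoxa6 (chr6:52208623-52208922, minus strand): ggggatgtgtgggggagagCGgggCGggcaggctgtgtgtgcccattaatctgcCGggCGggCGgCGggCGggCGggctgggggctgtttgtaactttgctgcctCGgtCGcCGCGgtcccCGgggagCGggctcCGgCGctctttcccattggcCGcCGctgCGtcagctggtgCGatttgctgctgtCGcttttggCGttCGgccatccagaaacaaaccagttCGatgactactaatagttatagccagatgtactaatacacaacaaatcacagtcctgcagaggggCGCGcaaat
Hoxb4 (chr11:96318017-96318316, plus strand): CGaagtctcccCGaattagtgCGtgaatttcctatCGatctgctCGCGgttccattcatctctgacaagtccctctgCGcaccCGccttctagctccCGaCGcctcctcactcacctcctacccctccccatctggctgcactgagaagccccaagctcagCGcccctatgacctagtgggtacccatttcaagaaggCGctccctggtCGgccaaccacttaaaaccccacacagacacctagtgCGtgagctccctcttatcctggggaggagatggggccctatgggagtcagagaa
Hoxb8 (chr11:96281655-96281954, plus strand): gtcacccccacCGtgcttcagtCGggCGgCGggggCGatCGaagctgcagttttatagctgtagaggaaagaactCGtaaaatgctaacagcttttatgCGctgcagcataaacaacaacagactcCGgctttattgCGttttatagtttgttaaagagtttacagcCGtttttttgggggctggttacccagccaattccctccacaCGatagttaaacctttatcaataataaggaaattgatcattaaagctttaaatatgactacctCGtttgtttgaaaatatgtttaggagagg

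These 4 windows held 29, 26, 14 and 13 CG dinucleotides, respectively. Over the 24 promoters found for 22 member symbols the median was 14.5, against 7 over all 32851 promoters of the table. The *Hoxb8* window also held the TATA box letters TATAAA at 2 places on the strand opposite to the one printed, as TTTATA, and on either strand this motif was found in 4 of 24 member promoters and in 13.6% of all promoters. TGATTNAT, a joint site of HOX and PBX proteins, was in the promoters of *Hoxa2* and *Hoxd11*, against 3.22% of all promoters. AGAACA, a partial androgen receptor site, was in those of *Hoxa9* and *Hoxa11*, against 19.0%, and ATCAAAG, the site of TCF and LEF proteins, was in that of *Hoxd8*, against 3.73%. A match is a run of letters and does not show that a factor bound there.

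Total counts on genes were 21751803 to 29730420 in WT, 27421827 to 28517421 in PIN, and 23527628 and 24457124 in PCa. Some libraries stood apart. WT 1 held a summed level of 15880 CPM (read counts scaled to the library size) over 7 seminal vesicle genes, against 0.634 and 0.769 in WT 2 and WT 3, 43.9 to 88.7 in PIN, and 3840 and 883 in PCa. Smooth muscle genes summed to 2021 to 4863 CPM in WT and 3197 to 5859 in PIN, and to 42.5 and 19.7 in PCa, and all 6 genes of that list were below every WT and PIN library in both PCa libraries. *Pbsn*, the gene of a prostate secretory protein, ranged from 6552 to 23968 CPM in WT and had 8.53 and 60.8 in the tumors, while *Epcam* of epithelial cells ranged from 448 to 1192 CPM in WT and 486 to 1063 in PIN and was at 459 and 246 in PCa. *Krt8*, of luminal epithelium, ranged from 149 to 975 CPM in WT and PIN and was at 453 and 333 in PCa. The 8 luminal genes together were lower in both tumors, at 5975 and 3708 CPM against 11325 or more elsewhere, as were the 4 urothelial genes, at 66.5 and 141 against 222 or more. Basal cell genes summed to 604 CPM in PCa 1 and to 27.4 in PCa 2, and leukocyte genes to 98.0 and 13.9. Endothelial genes summed to 90.3 and 82.1 CPM in PCa, above the 12.4 to 76.0 of all WT and PIN libraries, and fibroblast genes to 744 and 282, against 521 to 1025. No single endothelial gene was above all WT and PIN libraries in both tumors. *Pecam1* was so in PCa 1 alone, *Cdh5* and *Kdr* in PCa 2 alone, and *Tek* in neither. The library numbers in the labels fall into 3 series, of WT 1, of WT 2 and WT 3, and of all PIN and PCa libraries, so that series and condition cannot be told apart in comparisons with WT.

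The normal prostate expressed 3 of the 4 clusters. Levels of different genes are compared as TPM, a share of transcripts that corrects for the summed exon length of a gene. *Hoxb* transcripts made up 75.7 to 78.4% of all *Hox* TPM in WT, *Hoxa* 12.3 to 15.9%, *Hoxd* 7.85 to 9.29% and *Hoxc* 0.0304 to 0.303%. The highest were *Hoxb13*, needed for the identity of prostate epithelium, with a median over the WT libraries of 328 TPM, and *Hoxb9*, a gene of trunk and mammary patterning, with 170 TPM. The lowest *Hoxb13* library, at 202 TPM, lay above the highest *Hoxb9* library, at 183, and *Hoxb9* was separated in turn from *Hoxb6*, at 23.8 to 51.7 TPM. Below these came *Hoxd13* with a median of 36.0 TPM, *Hoxa10* with 26.2, *Hoxa13* with 26.0 and *Hoxa9* with 23.6, whose ranges over the WT libraries overlapped. The groups 9 to 13 of the *Hoxa* cluster summed to 59.0 to 115 TPM in WT, against 10.2 to 24.3 TPM for the groups below 9 of the same cluster.

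*Hoxc* genes were close to the detection limit. Summed over the 9 genes there were 41 counts in WT 1 and 1 to 6 in each other library, and *Hoxc12* and *Hoxc13* had 0 counts in all 8. Most counts in WT 1 fell on *Hoxc10* with 12, *Hoxc6* with 11 and *Hoxc8* with 8, and WT 1 was also the library with high seminal vesicle genes, whose part in these counts was not tested. A gene at 0 counts may still be present at up to 3 counts per library, or 0.0965 to 0.148 CPM. No *Hoxc* gene, and neither *Hoxb1*, *Hoxb2*, *Hoxd1* nor *Hoxd4*, reached the filter, set at over 1 CPM on unscaled library sizes in 2 or more libraries, so 26 of the 40 rows were tested. *Gm15055*, *Hoxa2* and *Hoxa4* passed it through the PCa libraries alone, so that their higher level in PCa was a condition of being tested, and counts for the PCa comparisons are also given over the other 23 members.

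**Figure D1:**
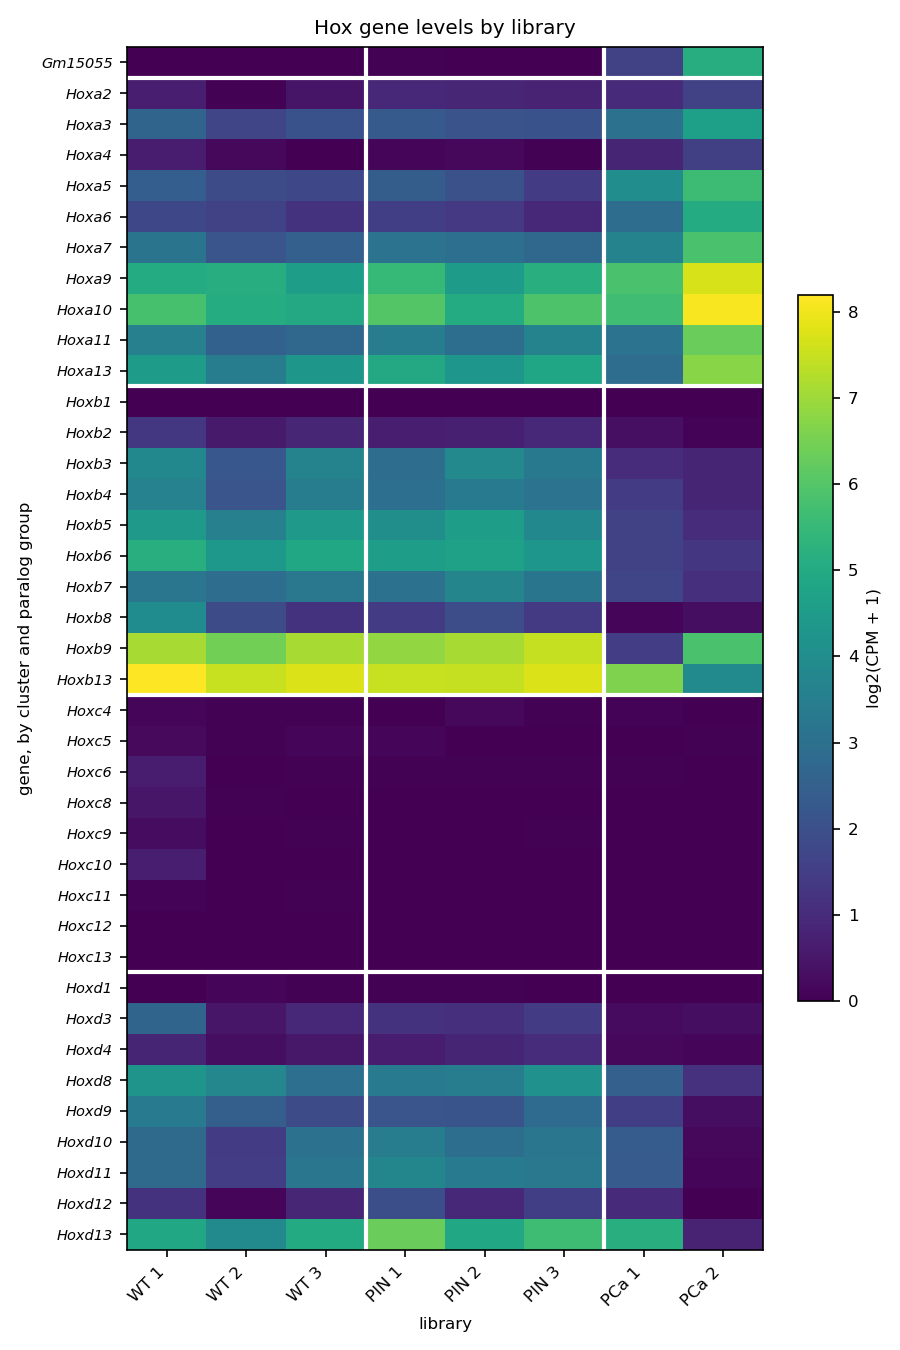
Levels of each *Hox* gene and *Gm15055* (rows, by cluster and paralog group) in the 8 libraries (columns) as log2(CPM + 1), with brighter colors for higher levels and white lines between clusters and groups. *Hoxb13* and *Hoxb9* are brightest in WT and PIN, *Hoxa9* to *Hoxa13* are brightest in PCa 2, and the *Hoxc* rows are dark in every library.

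PIN lesions were compared with WT to see whether *Hox* use changes before a tumor forms. A gene was called when its absolute log2 fold change was above 1 and its adjusted p was under 0.05 in edgeR's quasi-likelihood F-test, with p-values adjusted by Benjamini-Hochberg over the 14034 genes tested. No member was called in PIN, where 0.0% of all genes were called, and 0 of 26 members had an unadjusted p under 0.05, against 492 genes or 3.51%. DESeq2 called 39 genes and 0 members. The median log2 fold change of the members was 0.12, against −0.02 over all genes tested. In 2 members the PIN and WT values did not overlap, against 12.9% of all genes, and both were higher in PIN, against 6.48% of all genes.

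The members that lay outside the WT range were *Hoxa2*, a hindbrain gene, and *Hoxd11*, a gene of limb and kidney patterning. *Hoxa2* was at 0.59, 0.05 and 0.37 CPM in WT and at 0.90, 0.83 and 0.75 in PIN, levels of few reads. *Hoxd11* was at 6.18, 1.81 and 8.31 CPM in WT and at 12.7, 9.13 and 8.63 in PIN, so that the lowest PIN library lay just above the highest WT library. *Hoxd13*, a gene of digit and genital development, was at 28.2, 14.2 and 31.3 CPM in WT and at 78.0, 29.2 and 49.4 in PIN. The *Hoxd13* groups overlapped, with a log2 fold change of 1.09 ± 1.03 (SE, edgeR adjusted p = 1.0). *Hoxd* transcripts took 10.2 to 18.0% of *Hox* TPM in PIN, a share above all WT libraries, but their summed TPM overlapped, with 77.6 to 152 in PIN and 34.1 to 86.2 in WT, and in 6 of 7 tested *Hoxd* genes the groups overlapped.

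**Figure D2:**
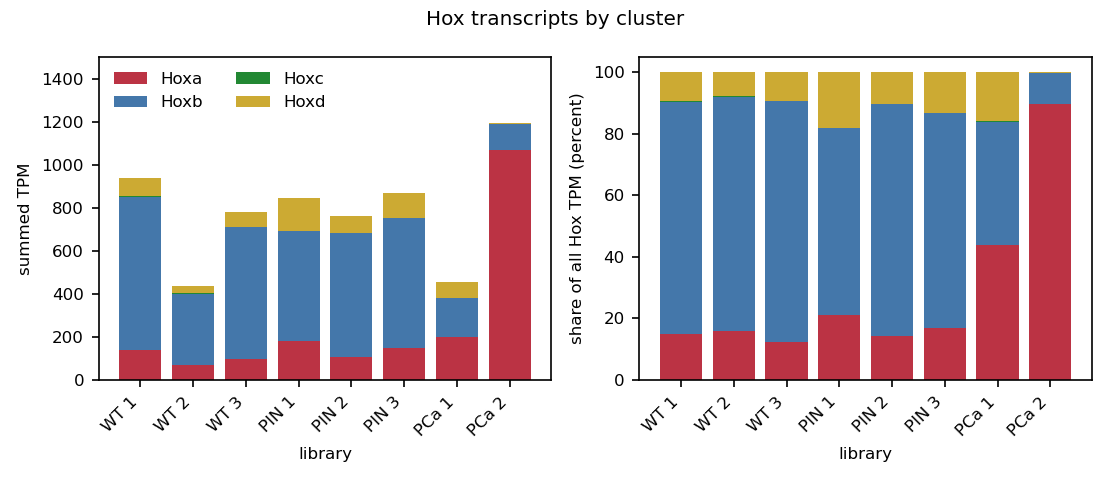
Summed TPM of the *Hox* genes of each cluster (left) and the share of each cluster in all *Hox* TPM in percent (right) for each library. *Hoxb* takes from 60.9% to 78.4% in the WT and PIN libraries, 40.3% in PCa 1 and 10.1% in PCa 2, where *Hoxa* takes 89.6%.

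In PCa the called genes of the *Hoxa* and *Hoxb* clusters differed from WT in opposite directions. Compared with WT, 5 members were called higher, which were *Gm15055*, *Hoxa5*, *Hoxa6*, *Hoxa7* and *Hoxa9*, and 6 were called lower, which were *Hoxb3*, *Hoxb4*, *Hoxb5*, *Hoxb6*, *Hoxb7* and *Hoxb8*. *Gm15055* was among those that passed the filter through PCa alone. Without such members 10 of 23 were called, 4 of them higher, beside 8.54% of all genes tested, with 4.35% called higher and 4.18% called lower. With upper-quartile in place of TMM normalization 9 of the 11 were called, without *Hoxb4* and *Hoxb8*. Apart from *Hoxa2* and *Hoxa4*, all 8 tested *Hoxa* genes had a log2 fold change above 0, with a median of 2.40, and all 8 tested *Hoxb* genes one below 0, with a median of −3.04. Over all genes tested, 50.6% were above 0 and the median was 0.01. The 7 tested *Hoxd* genes were all below 0 with a median of −1.37, and none of them was called, although 3 had an unadjusted p under 0.05. Without the 3 members that passed the filter through PCa alone, 17 of 23 had an unadjusted p under 0.05, against 27.5% of all genes. Both PCa libraries lay outside the WT range in 16 of these 23, against 37.3% of all genes. They lay above it in 5, against 17.7% of all genes, and below it in 11, against 19.6%.

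**Figure D3:**
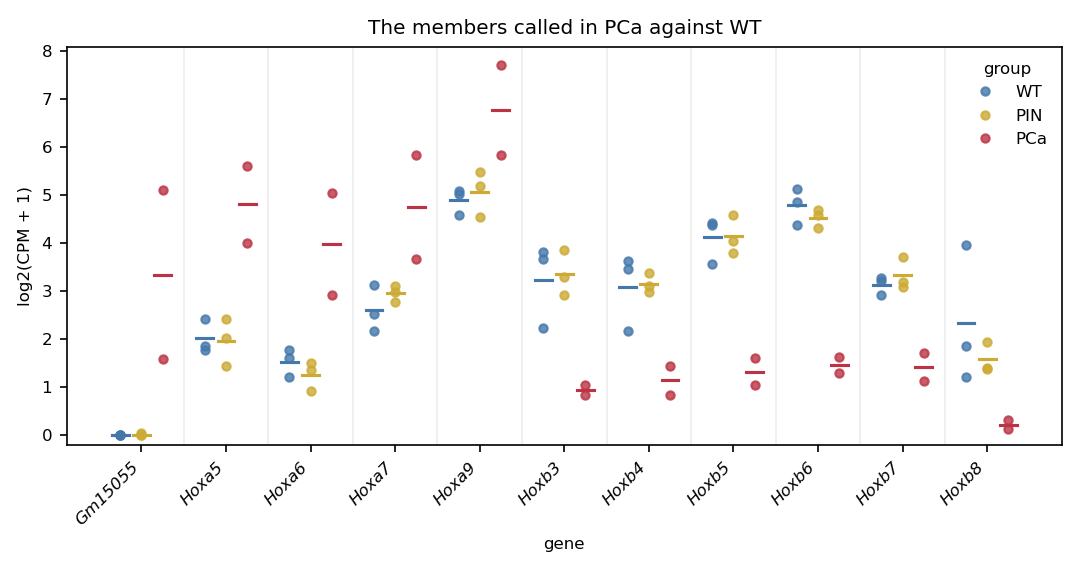
The 11 members called in PCa against WT, with log2(CPM + 1) of each library as points colored by group and group means as bars. The 5 members on the left lie higher in PCa and are spread widely between the 2 tumors, and the 6 *Hoxb* genes on the right lie lower in both tumors.

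*Gm15055* was the member with the largest contrast. It had 0 counts in all 3 WT libraries, 1 count in PIN 1 and 0 in PIN 2 and PIN 3, and 62 and 980 counts in PCa 1 and PCa 2, or 2.00 and 33.6 CPM. Both tumors were thus above every other library, and they differed widely from each other. With a limit of 3 counts over the WT group, the PCa mean of 17.8 CPM was at least 413-fold higher than WT, and PCa 1 alone was at least 46.3-fold higher. This transcript has been linked in mouse embryonic stem cells to repression of *Hoxa* genes.

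*Hoxa5*, which acts in lung and mesenchyme development, was at 4.40, 2.63 and 2.42 CPM in WT, 4.36, 3.10 and 1.73 in PIN, and 15.1 and 47.6 in PCa. Both tumors lay above all other libraries, and the mean was 9.97-fold higher than in WT (log2 fold change 3.32 ± 0.60, edgeR adjusted p = 0.020). Its neighbor *Hoxa6* was at 2.42, 2.04 and 1.32 CPM in WT, 1.84, 1.58 and 0.90 in PIN, and 6.53 and 31.9 in PCa, with the same log2 fold change of 3.32 ± 0.68 (edgeR adjusted p = 0.029). Both promoters printed above for these genes were rich in CG, with 29 and 26 CG dinucleotides. Those of *Hoxa7* and *Hoxa9*, also called higher, held 9 and 4, beside a median of 7 over all promoters. The higher *Hoxa* levels came with the higher endothelial sum given above, whose part in them was not tested. No single gene of that sum was above all WT and PIN libraries in both tumors.

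*Hoxa7* was at 7.81, 3.49 and 4.76 CPM in WT, 7.67, 6.89 and 5.88 in PIN, and 11.7 and 55.8 in PCa. It rose by 2.66 ± 0.62 on the log2 scale over WT (edgeR adjusted p = 0.041), with 20.4% of its exon bases overlapped on the opposite strand by *2700086A05Rik*. Whether the counting used strand is not given in the sources used here, and without strand, reads of these genes in their overlap cannot be told apart. *Hoxa9*, known for its part in leukemia driven by MLL fusions, was at 31.6, 33.0 and 23.0 CPM in WT, 43.6, 22.3 and 35.3 in PIN, and 56.3 and 207 in PCa (log2 fold change 2.17 ± 0.52, edgeR adjusted p = 0.043). Without PCa 2, the tumor with the higher levels, the log2 fold changes of *Hoxa5*, *Hoxa6*, *Hoxa7* and *Hoxa9* were 2.28, 1.78, 1.15 and 0.96, and only that of *Hoxa5* was still called. Over the 8 fits that left out a library, *Hoxa5* was called in 6 and *Hoxa6*, *Hoxa7* and *Hoxa9* in 1 each, and *Gm15055* was called in 0 of the 6 in which it passed the filter.

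The genes beyond *Hoxa9* were high in PCa 2 alone. *Hoxa10*, a gene of the reproductive tract, was at 55.0, 32.3 and 29.7 CPM in WT, 63.4, 31.8 and 58.3 in PIN, and 50.01 and 275 in PCa. *Hoxa11*, used in limb, kidney and reproductive tract, was at 10.8, 4.80 and 5.60 CPM in WT, 9.83, 6.85 and 11.8 in PIN, and 7.63 and 79.3 in PCa. *Hoxa13*, used in digits and the urogenital sinus, was at 21.5, 9.88 and 19.0 CPM in WT, 29.9, 18.8 and 27.6 in PIN, and 6.60 and 107 in PCa. In all 3 genes PCa 2 was the highest library, and in *Hoxa13* PCa 1 was the lowest, so the groups overlapped and none was called (edgeR adjusted p = 0.092, 0.091 and 0.25). Without PCa 2 the log2 fold change of *Hoxa13* against WT turned from 1.75 to −1.33.

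*Hoxa2*, *Hoxa3* and *Hoxa4* were above all WT libraries in both tumors without being called. *Hoxa3* ranged from 2.31 to 5.24 CPM in WT and reached 7.50 and 23.6 in the tumors (edgeR adjusted p = 0.054). *Hoxa2* and *Hoxa4* stayed at 2.06 CPM or less in every library. *Hoxa11as*, antisense to 38.6% of the *Hoxa11* exon bases, was at 180, 32.9 and 32.6 CPM in WT, 154, 34.0 and 173 in PIN, and 17.6 and 163 in PCa, a wide spread within each group.

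**Figure D4:**
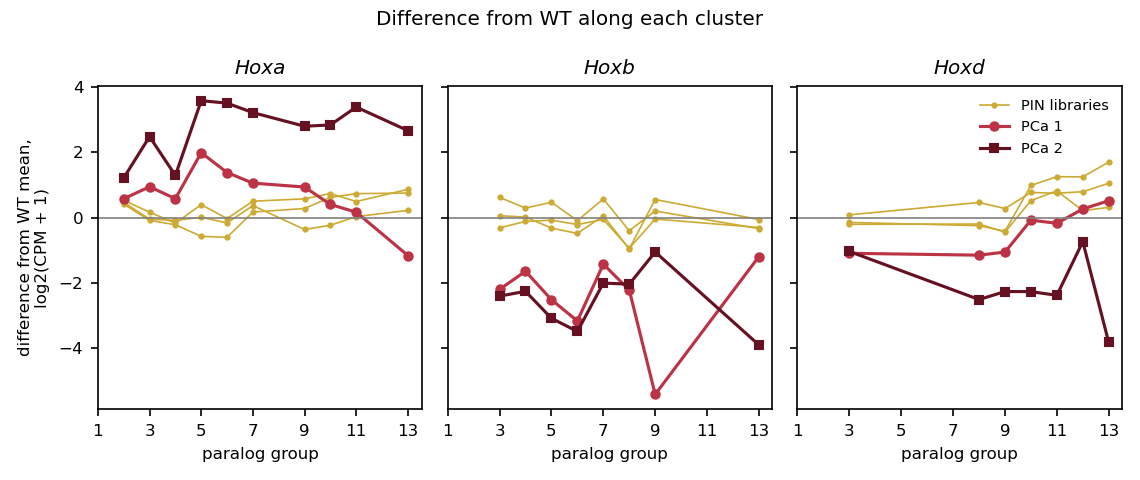
Difference of each PIN and PCa library from the WT mean in log2(CPM + 1), for the tested genes of *Hoxa*, *Hoxb* and *Hoxd* by paralog group, with lines joining the genes of 1 library. PCa 2 lies above 0 along all of *Hoxa*, PCa 1 falls from 1.99 at *Hoxa5* to −1.16 at *Hoxa13*, and both lie below 0 along *Hoxb*.

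The 8 tested *Hoxb* genes were lower than in every WT library in both tumors. *Hoxb6*, a gene of trunk patterning, was at 33.8, 19.8 and 28.2 CPM in WT, 22.9, 25.004 and 18.8 in PIN, and 2.09 and 1.47 in PCa. The tumors were close together and far below the rest, 15.3-fold lower than WT on average (log2 fold change −3.93 ± 0.37, edgeR adjusted p = 0.0046). *Hoxb5*, used in gut nerves and lung, was at 20.5, 10.8 and 19.9 CPM in WT, 15.6, 23.2 and 12.996 in PIN, and 2.06 and 1.06 in PCa, or 10.9-fold lower (log2 fold change −3.45 ± 0.51, edgeR adjusted p = 0.011). *Hoxb6* and *Hoxb5* were called against WT in all 8 fits that left out a library.

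*Hoxb3* was at 13.002, 3.72 and 11.8 CPM in WT, 6.62, 13.5 and 8.85 in PIN, and 1.06 and 0.79 in PCa (log2 fold change −3.35 ± 0.67, edgeR adjusted p = 0.026). *Hoxb4*, which widens the pool of blood stem cells when overexpressed, was at 11.5, 3.49 and 10.1 CPM in WT, 6.88, 9.47 and 7.65 in PIN, and 1.74 and 0.79 in PCa (log2 fold change −2.72 ± 0.64, edgeR adjusted p = 0.041). In both, WT 2 was the lowest library outside the tumors. *Hoxb7* was at 8.26, 6.62 and 8.71 CPM in WT, 7.49, 12.1 and 8.17 in PIN, and 2.28 and 1.20 in PCa (log2 fold change −2.17 ± 0.44, edgeR adjusted p = 0.027). Of the 8 fits that left out a library, *Hoxb3* was called in 4, *Hoxb4* in 2 and *Hoxb7* in 3. All 3 calls were lost without WT 1 (edgeR adjusted p = 0.059, 0.089 and 0.062) and without PCa 2 (edgeR adjusted p = 0.071, 0.10 and 0.058).

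*Hoxb8*, a gene of myeloid progenitors and spinal cord, was at 14.6, 2.63 and 1.32 CPM in WT, 1.66, 2.86 and 1.62 in PIN, and 0.10 and 0.24 in PCa. WT 1 was far above the other libraries, and both tumors were below all of them (log2 fold change −5.17 ± 1.27, edgeR adjusted p = 0.047). Without WT 1 the log2 fold change was −3.52 ± 0.79 and the call was lost (edgeR adjusted p = 0.059), as it was in all 8 fits that left out a library. *Hoxb8* shares 40.4% of its exon bases with *Hoxb7* on the same strand, and *Hoxb3* shares 37.9% with *Hoxb3os* on the opposite strand. How reads in such overlaps were assigned is not given in the sources used here.

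The 2 most abundant *Hoxb* genes lay below the WT range in both tumors, each lowest in a different one. *Hoxb9* was at 137, 86.4 and 139 CPM in WT, 115, 136 and 174 in PIN, and 1.80 and 56.5 in PCa. *Hoxb13* was at 291, 178 and 213 CPM in WT, 181, 177 and 214 in PIN, and 97.2 and 14.02 in PCa. Both tumors were below all WT and PIN libraries for both genes, but *Hoxb9* was 31.4-fold higher in PCa 2 than in PCa 1 and *Hoxb13* was 6.93-fold higher in PCa 1 than in PCa 2. Neither was called (edgeR adjusted p = 0.27 and 0.11). Between these genes lie the non-coding *Gm53*, with 40.3 to 115 CPM over the WT libraries and 3.41 and 130 over the tumors, and the *Mir196a-1* precursor, with 2.13 to 9.74 CPM over the WT libraries and 0.39 and 11.9 over the tumors. Both were below the WT range in PCa 1 and above it in PCa 2. *Gm11538*, another transcript between the same genes, was at 12.2 to 39.4 CPM in WT, with 17.1 in PCa 1 and 1.27 in PCa 2, so that here PCa 2 was the low library. These 3 transcripts were chosen after their values were seen.

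The lower *Hoxb* levels came with the lower smooth muscle, luminal and urothelial sums given above, whose part in them was not tested. The *Hoxd* genes *Hoxd3*, *Hoxd8* and *Hoxd9* were below all WT libraries in both tumors. *Hoxd8*, the highest of these, was at 17.8, 12.8 and 6.88 CPM in WT, 9.72, 10.1 and 16.5 in PIN, and 4.73 and 1.23 in PCa (log2 fold change −2.06 ± 0.67, edgeR adjusted p = 0.096). *Hoxd3* was highest in WT 1, at 5.19 CPM against 0.41 and 0.88 in the other WT libraries, and was at 0.19 and 0.24 in PCa.

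At the 5′ end of the *Hoxd* cluster the tumors parted. *Hoxd13* was at 33.8 CPM in PCa 1, above all WT libraries, and at 0.72 in PCa 2, below all of them. *Hoxd10* was at 6.13, 1.68 and 7.54 CPM in WT, 9.83, 6.85 and 8.32 in PIN, and 4.18 and 0.14 in PCa, and *Hoxd11* was at 4.09 CPM in PCa 1 and 0.10 in PCa 2. *Hoxd12* was at 1.00 CPM in PCa 1 and had 0 counts in PCa 2. Without PCa 2 the log2 fold changes of *Hoxd12* and *Hoxd13* against WT turned from −0.56 to 0.45 and from −0.51 to 0.48.

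Library by library, the difference of PCa 1 from the WT mean in log2(CPM + 1) had a median of 0.94 over the 8 tested *Hoxa* genes that passed the filter without PCa, −2.20 over the 8 *Hoxb* genes and −0.17 over the 7 *Hoxd* genes. In PCa 2 the medians were 3.03, −2.33 and −2.26. PCa 1 was above all WT libraries in 5 of these 8 *Hoxa* genes, none of them beyond *Hoxa9*, and below them in *Hoxa13*, against 32.9% and 32.3% of all genes tested. PCa 2 was above in all 8, against 31.9% of all genes. Summed over the cluster, *Hoxa* reached 199 TPM in PCa 1 and 1069.9 TPM in PCa 2, against 69.2 to 139 in WT. In PCa 1 the highest *Hox* gene was still *Hoxb13* with 168 TPM, followed by *Hoxa9* with 61.4, and in PCa 2 the order was *Hoxa10* with 284, *Hoxa9* with 235 and *Hoxa13* with 171 TPM. With 1 library each, differences between the tumors have no replicate check.

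With only the WT and PCa libraries in the fit, 1 member, *Hoxb6*, was called against WT. The count of 11 became 3, 5 and 2 without WT 1, 2 and 3, 4, 5 and 3 without PIN 1, 2 and 3, and 19 and 4 without PCa 1 and PCa 2. Of these calls 0 were higher in PCa without WT 2, without WT 3 and with only the WT and PCa libraries, 1 was higher without WT 1, without each PIN library and without PCa 2, and 8 were higher without PCa 1. In the order of the libraries above, the 1198 calls over all genes became 628, 1023 and 347, then 612, 723 and 447, and 2477 and 1389, so that without PCa 2 fewer members but more genes were called.

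Compared with PIN, the tumors are set beside tissue with the same transgene and the same library series, but the ages of these animals are not known and may differ. Marker sums differed here too, with seminal vesicle genes higher in both tumors than in PIN, as given above, and neuroendocrine genes lower, at 9.46 and 9.09 CPM against 23.2 to 36.6 in PIN. Their part in the *Hox* differences was not tested. Called higher in PCa were *Gm15055*, *Hoxa5* and *Hoxa6*, and called lower were *Hoxb3*, *Hoxb5*, *Hoxb6* and *Hoxb7*, or 7 members. Without *Gm15055*, *Hoxa2* and *Hoxa4* these were 6 of 23, with 2 called higher, against 5.72% of all genes tested, with 2.55% called higher and 3.17% lower. The log2 fold changes were 3.35 ± 0.60 for *Hoxa5* and 3.73 ± 0.69 for *Hoxa6* (edgeR adjusted p = 0.027 and 0.029). They were −3.38 ± 0.67 for *Hoxb3*, −3.46 ± 0.51 for *Hoxb5*, −3.64 ± 0.36 for *Hoxb6* and −2.41 ± 0.44 for *Hoxb7* (edgeR adjusted p = 0.033, 0.015, 0.0056 and 0.029). The medians were 2.18 for *Hoxa*, −3.02 for *Hoxb* and −2.02 for *Hoxd*, against 0.07 over all genes.

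Against PIN, 5 of the 8 *Hoxa* genes that passed the filter without PCa lay above all PIN libraries in both tumors, and 8 of 8 *Hoxb* and 5 of 7 *Hoxd* genes lay below them, against 21.1% of all genes above and 23.2% below, or 44.3% outside the PIN range. *Hoxd10* and *Hoxd11* were below all PIN libraries although they overlapped with WT. The PCa libraries are the same in both comparisons, so these values are not a second measurement of the tumors. The count of 7 became 6, 8 and 2 without WT 1, 2 and 3, 1 in each fit that left out a single PIN library, and 3 with only the PIN and PCa libraries in the fit. Over all genes the 803 calls became 491, 1095 and 295 without WT 1, 2 and 3, 78 to 160 without a PIN library, 2251 without PCa 1, 974 without PCa 2, and 388 in the fit of PIN and PCa alone. None of the members called without WT 3, without a PIN library, without PCa 2 or in the fit of PIN and PCa alone was higher in PCa, against 3 without WT 1, 3 without WT 2 and 8 without PCa 1.

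Genes beside the clusters were counted as a list of their own. Of 14 tested flanking genes, 3 were called higher in PCa than in WT and 0 lower, beside 4.35% and 4.18% of all genes, and against PIN 1 was called higher and 0 lower, beside 2.55% and 3.17%. *Skap2*, an adaptor protein gene 142818 bases beyond the 3′ end of the *Hoxa* cluster, was at 23.7, 36.2 and 29.3 CPM in WT, 29.5 to 32.9 in PIN, and 75.4 and 187 in PCa (log2 fold change 2.14 ± 0.37, edgeR adjusted p = 0.017). *Smug1* and *Cbx5*, beside the *Hoxc* cluster, rose by 1.22 ± 0.25 and 1.32 ± 0.29 on the log2 scale (edgeR adjusted p = 0.027 and 0.034). On the *Hoxa13* side, *Evx1*, a homeobox gene 52618 bases away, and the non-coding *5730457N03Rik* were at 43.6 and 106 CPM in PCa 2 and at 0.62 CPM or less in all other libraries, so they did not pass the filter. *Evx2*, its relative beside *Hoxd13*, ranged from 1.54 to 6.62 CPM in WT, with 2.67 CPM in PCa 1 and 0 counts in PCa 2. Of 9 tested other transcripts inside the clusters, 1 was called higher and 1 lower in PCa against WT, and 1 higher and 0 lower against PIN. The non-coding *Gm15051*, within the *Hoxa* cluster, ranged from 0.18 to 0.35 CPM in WT and 0.31 to 0.68 in PIN and reached 11.6 and 6.89 in the tumors (log2 fold change 5.19 ± 0.59, edgeR adjusted p = 0.007), and it too passed the filter through PCa alone. *1700109F18Rik*, within the *Hoxd* cluster, was the lower one (log2 fold change −3.37 ± 0.84, edgeR adjusted p = 0.049).

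**Figure D5:**
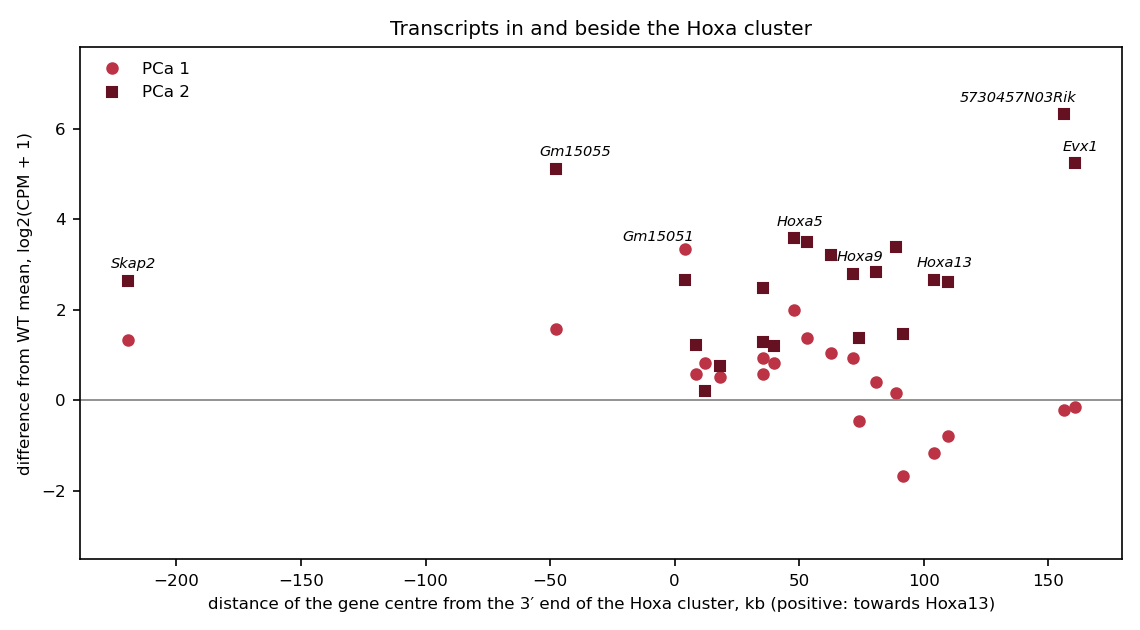
Difference of each PCa library from the WT mean in log2(CPM + 1) for the genes in and beside the *Hoxa* cluster with at least 30 counts over all libraries, and for the members, against the distance of the gene centre from the 3′ end of that cluster in kb. *Skap2*, *Gm15055* and *Gm15051* lie above 0 in both tumors, while *Hoxa13*, *5730457N03Rik* and *Evx1* lie above 0 in PCa 2 and below 0 in PCa 1.

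Partners and regulators of *Hox* genes were counted by lists, to be read beside the 8.54% of all genes called against WT and the 5.72% called against PIN. None of 7 tested TALE homeobox genes, whose PBX, MEIS and PKNOX proteins bind DNA with HOX proteins, was called in PCa against WT. Of 14 genes of the MLL and menin group, which keeps *Hox* genes active, *Mllt3* was called higher, ranging from 6.71 to 17.0 CPM in WT and reaching 65.7 and 40.5 in the tumors (log2 fold change 2.11 ± 0.44, edgeR adjusted p = 0.029). *Men1* and *Kmt2a*, the core of that group, were not called (edgeR adjusted p = 0.48 and 0.39), and against PIN 0 of the 14 were called.

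Of 18 Polycomb and H3K27 demethylase genes, 1 was called against WT and 2 against PIN. *Ezh2*, the enzyme that places the repressive H3K27 methyl mark, was called higher, with a WT range of 12.96 to 15.6 CPM, a PIN range of 11.7 to 22.4, and levels of 74.9 and 46.8 in PCa. It rose by 2.08 ± 0.33 over WT and 1.84 ± 0.32 over PIN on the log2 scale (edgeR adjusted p = 0.013 and 0.027). *Cbx2*, a reader of that mark, was called against PIN (log2 fold change 1.99 ± 0.44, edgeR adjusted p = 0.043).

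Retinoic acid, made from vitamin A, turns on 3′ *Hox* genes in embryos. Of 10 tested genes of its pathway, 4 were called higher and 1 lower in PCa against WT, but against PIN 1 was called higher, *Aldh1a3* with a log2 fold change of 2.71, and 0 lower. *Stra6*, the vitamin A uptake receptor, was at 7.96, 2.72 and 6.37 CPM in WT, 64.2, 9.95 and 18.8 in PIN, and 54.2 and 427 in PCa (log2 fold change 5.40 ± 1.10, edgeR adjusted p = 0.028). Of the enzymes that make retinoic acid, *Aldh1a1* rose by 2.60 ± 0.60 and *Aldh1a3* by 2.99 ± 0.47 on the log2 scale, and *Aldh1a2* fell, with −4.65 ± 1.15 (edgeR adjusted p = 0.040, 0.013 and 0.047). *Aldh1a1* ranged from 22.4 to 93.5 CPM in WT and was already at 150 to 383 in PIN, beside 377 and 425 in PCa (log2 fold change 0.62 against PIN, edgeR adjusted p = 0.59). The receptor gene *Rarg* rose by 1.87 ± 0.43 (edgeR adjusted p = 0.038). *Cdx1*, *Cdx2* and *Cdx4*, which turn on *Hox* genes in the embryo, had 0 counts in every library but for 0.03 CPM of *Cdx1* in PCa 1.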

How the data were processed

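Total RNA depleted of ribosomal RNA was sequenced from 8 libraries. The authors trimmed reads with cutadapt 1.9.1, aligned them to mm9 with HISAT2 2.1.0 and counted them per gene with HTSeq 0.6.1, with tool versions as in the submitters' processing notes, and what they deposited are raw counts per gene. Beside these counts the table gives the coordinates and the summed exon length of a gene, which are other values from the annotation and served for TPM. Strand and overlap settings of the counting are not given in the sources used here, and the exon overlaps come from GENCODE M1 on the same genome build, where 39 of 40 member rows had the same start and end.

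The analysis of the counts used edgeR 4.0.16 in R 4.3.3. The filter kept genes above 1 CPM on unscaled library sizes in 2 or more libraries. TMM factors then scaled the library sizes, and printed CPM are on the scaled sizes. All 8 libraries entered 1 quasi-likelihood fit of 3 groups with 5 residual degrees of freedom. P-values were adjusted by Benjamini-Hochberg over the 14034 genes tested, and ± SE was taken from the fold change and its F statistic. The CPM minimum, F-test and threshold follow the study's methods, which give CPM after normalization, name TPM as the input and ask that TMM and upper-quartile normalization concur. Here counts were tested with TMM, and upper-quartile was an alternative. Groups and replicate numbers come from the labels. P-values measure the spread between these animals, and depth limits genes with few counts, while limits from counts of 0 cover counting error only.

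The members and the lists of cofactors, regulators, flanking genes and cell type markers were chosen with earlier results of these data known. Members called in any comparison and the 3 members highest in WT in each expressed cluster were named with every library. Of the members and the list of TALE genes, 1 gene each is not reported here and is left out of counts and sums over them. Alternatives were DESeq2 1.42.0, upper-quartile normalization, no filter, edgeR's filterByExpr, a replicate block, only the groups compared, limma-trend (limma 3.58.1), the adjusted p without a fold limit, and leaving out each library. The steps were tested on simulated counts.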

Additional observations from a re-analysis of the deposited data

How the results depend on the processing

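With all libraries kept, 7 refits changed no direction of a member in a comparison with PCa. DESeq2 called 18 members when PCa was set against WT and 15 when it was set against PIN, with 2487 and 1984 genes, and it called 39 genes in PIN against WT. With only the groups compared, the members called were 1 and 3, and the genes 130 and 388, against 1198 and 803 as reported, for PCa against WT and PIN in this order. The replicate block gave 2 and 1 members, with 0 of them higher in PCa, and 413 and 151 genes. Same-numbered libraries are different animals, and the labels state no pairing. Of such pairs 3 of 7 had a residual correlation above 0.1, with a mean of 0.083 against −0.042 for different numbers. With 2 PCa libraries their residuals mirror each other, so these values cannot decide whether the numbers pair libraries. *Hoxb6* was called in both comparisons in all 7 refits. Leaving out each library gave 2 to 19 members and 347 to 2477 genes in PCa against WT, 1 to 19 members and 78 to 2251 genes in PCa against PIN, and 0 in PIN against WT. A lone PCa library was then assumed to vary like the other groups, and *Gm15055*, *Hoxa2* and *Hoxa4* no longer passed the filter. The cause of these changes was not tested.

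In PIN against WT, where no member was called, log2 fold changes changed sign to 0.00950 for *Hoxd8* and 0.012 for *Hoxa5* with upper-quartile normalization, to 0.033 for *Hoxd8* and 0.12 for *Hoxb4* with the replicate block, and to 0.015, 0.097, 0.12 and 0.033 for *Hoxd8*, *Hoxb4*, *Hoxd3* and *Hoxa3* with limma-trend. Leaving out a library in PIN against WT gave ranges that cross 0 of 0.0 to 2.28 for *Gm15055*, −0.27 to 0.34 for *Hoxa3*, −1.97 to 0.36 for *Hoxa4*, −0.39 to 0.28 for *Hoxa5*, −0.032 to 0.43 for *Hoxa9*, −0.36 to 0.32 for *Hoxb3*, −0.43 to 0.23 for *Hoxb4*, −0.26 to 0.18 for *Hoxb5*, −0.0065 to 0.36 for *Hoxb7*, −2.07 to 0.056 for *Hoxb8*, −1.11 to 1.11 for *Hoxd3*, −0.34 to 0.30 for *Hoxd8* and −0.67 to 0.25 for *Hoxd9*. In PCa against WT they were −1.33 to 2.68 for *Hoxa13*, −7.27 to 0.45 for *Hoxd12* and −5.07 to 0.48 for *Hoxd13*, and in PCa against PIN −0.0099 to 2.44 for *Hoxa10*, −0.29 to 3.08 for *Hoxa11* and −1.92 to 2.08 for *Hoxa13*. Of 1148 values of single members under all alternatives, 957 kept direction and side of the threshold, 113 were no longer past it, 42 newly passed it and 36 changed sign.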
